A study of Saccharomyces cerevisiae with 4 samples.

Results

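The genes described here encode 55 proteins of the mitochondrial ribosome of Saccharomyces cerevisiae, 31 of the large subunit and 24 of the small subunit. They were taken from a list of open reading frames with MRPL, MRP, MRPS or RSM names that lie outside chromosome XI. Of the 6210 probes listed in the deposited data, 58 had a name that began with a listed open reading frame. For 3 of those the full name was that of another open reading frame, so 55 probes were kept, 1 per gene, and each had a value on all 4 arrays. A RefSeq table (assembly R64) gave a symbol for 55 of the 55, and its descriptions name them as mitochondrial ribosomal proteins.

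Both strains derived from strain Z26, in which the gene for the largest subunit of RNA polymerase II, RPB1, was exchanged by plasmid shuffle. In the 5A mutant the carboxyl-terminal domain (CTD) of that subunit had 5 alanines inserted between pairs of heptad repeats, and the control carried WT CTD sequences after the same shuffle. RNA came from log-phase cultures in rich glucose medium, and on each of 4 arrays the 5A mutant was labelled with Cy5 and the control with Cy3. Each value is a log2 ratio of the 5A mutant over the control, so that a negative value means less RNA in the mutant. The direction and base were read from the dyes and from the counts of probes past 1 and -1, as they are not stated with the values.

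The mitochondrial ribosome translates the few messages of the mitochondrial genome, most of which encode subunits of the respiratory chain and of ATP synthase. Its ribosomal RNAs come from mitochondrial DNA, while its proteins, except Var1, are encoded in the nucleus, made in the cytosol and imported. Many of these proteins have bacterial counterparts and others exist only in mitochondria. Yeast ferments glucose and can grow on it without mitochondrial translation, but needs it on non-fermentable carbon sources.

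The 55 genes lay for the most part slightly below 0. Their median log2 ratio was -0.24, or 0.845 of the control level, against -0.03 over all probes outside chromosome XI. The median of the members was -0.34, -0.18, -0.12 and -0.23 on arrays 1 to 4 (-0.22 ± 0.10, SD, n = 4), and the members below 0 numbered 44, 37, 33 and 43. The shift was thus present on each array and was small. In the limma fit over all 6157 probes measured on 2 or more arrays, 14 members passed an adjusted p of 0.05. Of these, 13 were down-regulated (23.6% of the members, against 20.7% of all probes tested and 21.7% of those outside chromosome XI) and 1 was up-regulated (1.82%, against 19.8% and 16.8%). In either direction 25.5% of the members were called, against 40.5% of all probes and 38.5% of those outside chromosome XI. The share of down-regulated members was therefore near the background, and the share of up-regulated members was lower than it. Array values rest on bulk cultures, in which less RNA in every cell and fewer cells with the RNA cannot be told apart. The p-values measure the spread between these 4 arrays, since separate cultures are not stated, and because the dyes were not swapped a dye effect cannot be told apart from the ratio.

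The sign of the ratio was less balanced among the members than over the table. The mean was below 0 for 40 of 55 members (72.7%, against 50.4% of all probes tested and 52.4% of those outside chromosome XI). A value below 0 on all 4 arrays was found for 23 members (41.8%, against 28.1% of probes with 4 values), and a value above 0 on all 4 for 6 (10.9%, against 26.8%). The remaining 26 members had arrays on both sides of 0. These are counts over the members with no test.

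**Figure D1:**
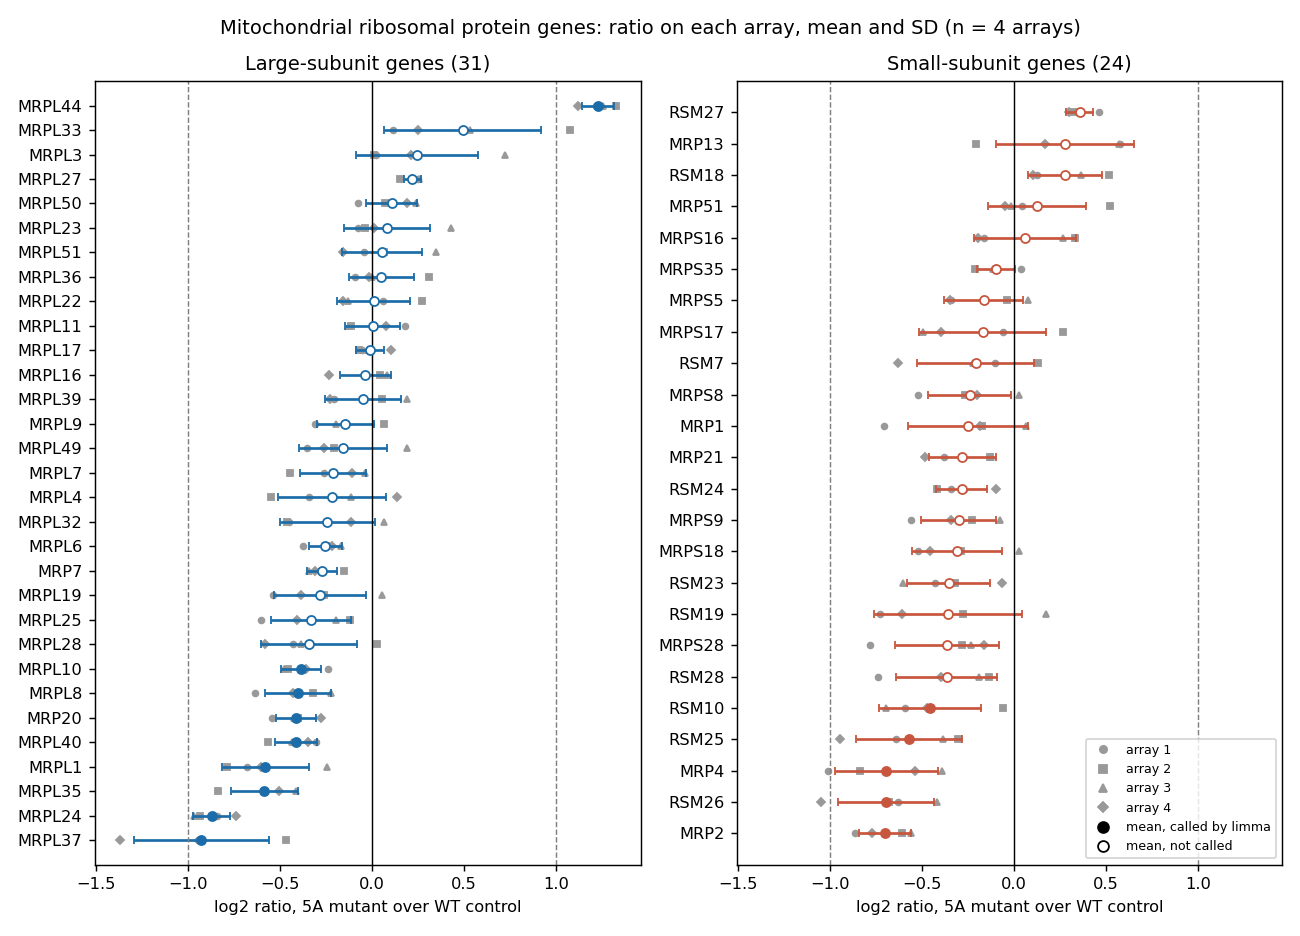
Log2 ratio of the 5A mutant over the control for each of the 55 genes, with the 4 arrays as small points and the mean and SD over the arrays as the larger symbol and bar, split into large- and small-subunit genes (filled symbols, adjusted p under 0.05 in limma; dashed lines, -1 and 1). MRPL44 has the only mean above 1, and the lowest mean is that of MRPL37 at -0.93.

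The ratios also spanned a narrow range. The SD over the 55 genes was 0.36, compared with 0.79 over all probes tested and 0.77 over those outside chromosome XI. A mean between -0.5 and 0.5 was found for 46 of the 55 members and for 3595 of the 5840 probes outside chromosome XI. Only 1 member (1.82%) was past the 2-fold cut-off, MRPL44, and none was past it in the lower direction. Past 2-fold were 14.4% of all probes tested and 12.9% of those outside chromosome XI. The median SD over the 4 arrays was 0.22 for the members and 0.30 for all probes. The plot of the share of genes by ratio shows the members gathered just below 0, with both tails of the full table nearly empty of them.

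**Figure D2:**
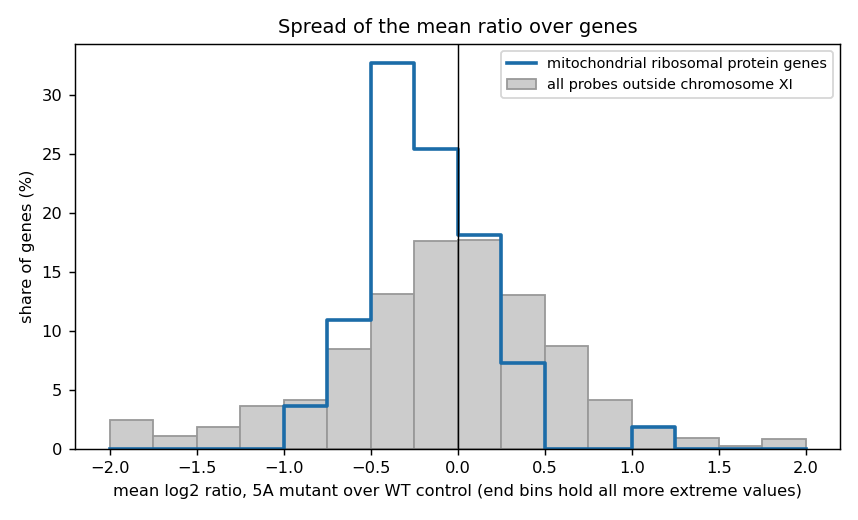
Share of genes (percent) by mean log2 ratio of the 5A mutant over the control in steps of 0.25, for the 55 members (line) and for all probes tested outside chromosome XI (bars); the end steps hold all more extreme values. The members have a median of -0.24 and all probes outside chromosome XI one of -0.03.

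The member with the lowest ratio was MRPL37 (YBR268W), a mitochondria-specific protein of the large subunit known as mL54. It read -0.95, -0.47, -0.92 and -1.37 on arrays 1 to 4. All were below 0, with array 2 the mildest, and the mean was -0.93 ± 0.37 (SD, n = 4, 1.90-fold lower, adjusted p = 0.00586 in limma). MRPL24 (YMR193W), the counterpart of bacterial L28, read -0.84, -0.94, -0.97 and -0.74. Its arrays were close together, and the mean was -0.87 ± 0.10 (SD, n = 4, 1.83-fold lower, adjusted p = 0.00247 in limma). These were the largest decreases among the 55 genes.

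MRP2 (YPR166C), the small-subunit counterpart of bacterial S14, read -0.86, -0.61, -0.56 and -0.77, again low on every array. It was 1.63-fold lower, with a mean of -0.70 ± 0.14 (SD, n = 4, adjusted p = 0.00593 in limma). RSM26 (YJR101W), a mitochondria-specific small-subunit protein, read -0.63, -0.68, -0.42 and -1.05, with the lowest value on array 4 (mean -0.69 ± 0.26, SD, n = 4, adjusted p = 0.0101 in limma). Without that array its adjusted p was 0.0550 in limma. MRP4 (YHL004W), the counterpart of bacterial S2, read -1.01, -0.84, -0.39 and -0.54. Arrays 1 and 2 were lower than arrays 3 and 4, the mean was -0.69 ± 0.28 (SD, n = 4, adjusted p = 0.0111 in limma), and without array 1 the adjusted p was 0.0590.

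The sixth lowest was MRPL35 (YDR322W), a mitochondria-specific large-subunit protein known as mL38. It read -0.58, -0.84, -0.41 and -0.51, all below 0, with a mean of -0.58 ± 0.18 (SD, n = 4, adjusted p = 0.0133 in limma). MRPL1, the counterpart of bacterial L1, had a mean of -0.58 ± 0.24 (SD, n = 4), and RSM25, a mitochondria-specific small-subunit protein, one of -0.57 ± 0.29. Both passed the limma test (adjusted p = 0.0172 and 0.0233). MRPL35 and MRPL1 were not called when array 1 or array 4 was left out, nor RSM25 without array 1, 3 or 4.

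A further 5 down-regulated members had means between -0.46 and -0.39. RSM10, the counterpart of bacterial S10, was at -0.46 ± 0.28, and its value on array 2 was only -0.06. MRPL40 and MRP20, the counterparts of bacterial L24 and L23, were at -0.41 ± 0.12 and -0.41 ± 0.11. MRPL8, the counterpart of bacterial L17, was at -0.40 ± 0.18 and MRPL10, that of bacterial L15, at -0.39 ± 0.11 (SD, n = 4 for each). Their limma adjusted p ranged up to 0.0471, just inside the threshold. Each of the 5 was lost without array 1, without array 3 and without array 4, and MRPL10 also without array 2. All of them except MRP20 were also lost with each chromosome centred on its own median. All 13 down-regulated members were below 0 on all 4 arrays, and their decreases ran from 1.31-fold to 1.90-fold.

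MRPL44 (YMR225C), a mitochondria-specific large-subunit protein known as mL53, was the only up-regulated member. It read 1.21, 1.32, 1.26 and 1.12, so that its lowest array was above the highest array of every other member. The mean was 1.23 ± 0.09 (SD, n = 4, 2.34-fold higher, adjusted p = 0.000786 in limma, 95% interval 0.94 to 1.52). The genes on either side of MRPL44, looked at after its value was seen, differed from it and from each other. MRE11, which encodes a DNA repair nuclease subunit, was at -1.95 ± 0.75 (SD, n = 3, adjusted p = 0.00416 in limma), and ORA1 was at 0.70 ± 0.28 (SD, n = 4, adjusted p = 0.0106 in limma). Neither overlaps MRPL44 in the RefSeq annotation.

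The next highest members did not pass the test. MRPL33 (YMR286W), the counterpart of bacterial L30, read 0.11, 1.07, 0.53 and 0.25, the widest spread over arrays among the 55 genes, with array 2 far above array 1. Its mean was 0.49 ± 0.42 (SD, n = 4, adjusted p = 0.0681 in limma), and its 95% interval ran from 0.06 to 0.92. RSM27 (YGR215W), a mitochondria-specific small-subunit protein, read 0.46, 0.32, 0.34 and 0.30. All 4 arrays lay close together above 0, and the mean of 0.36 ± 0.07 (SD, n = 4) was just outside the threshold at a limma adjusted p of 0.0531. Without array 2, or with each chromosome centred on its own median, RSM27 was called.

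MRP13 (YGR084C), another mitochondria-specific small-subunit protein, read 0.58, -0.21, 0.57 and 0.17. Array 2 lay on the other side of 0 (mean 0.28 ± 0.38, SD, n = 4, adjusted p = 0.229 in limma), and without it the adjusted p was 0.0396. RSM18 (YER050C), the counterpart of bacterial S18, read 0.12, 0.52, 0.36 and 0.10 (mean 0.28 ± 0.20, SD, n = 4, adjusted p = 0.143 in limma). MRPL3 (YMR024W), the mitochondria-specific protein mL44, read 0.02, 0.01, 0.72 and 0.21, so that array 3 carried most of its mean of 0.24 ± 0.33 (SD, n = 4, adjusted p = 0.262 in limma). Nearest to 0 was MRPL11 (YDL202W), the counterpart of bacterial L10, whose arrays of 0.18, -0.11, -0.13 and 0.08 fell on both sides.

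In all, 41 members were not called, with means from -0.37 to 0.49 and limma adjusted p from 0.0531 to 0.986. For 35 of them the 95% interval of the ratio included 0. Taken over all 41, the intervals reached from -0.78 to 0.92, so a change of 2-fold lay outside the interval of each gene. Which smaller changes lay outside differed between genes. The interval of MRPL11 ran from -0.30 to 0.31, and that of RSM19 from -0.78 to 0.06.

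Large- and small-subunit genes were then compared. Of the 31 large-subunit genes, 8 were down-regulated (25.8%), 1 was up-regulated and 22 did not pass the test. Of the 24 small-subunit genes, 5 were down-regulated (20.8%), none was up-regulated in the limma fit (1 at an unadjusted p under 0.05, RSM27, which a plain one-sample test also called) and 19 did not pass. Outside chromosome XI, 21.7% of probes were down-regulated and 16.8% up-regulated, so the down-regulated shares of both subunits were near the background. The median ratio was -0.21 for the large and -0.28 for the small subunit. Without array 2 these medians were -0.14 and -0.32, and without array 4 they were -0.25 and -0.27. Means below 0 were found for 21 large-subunit genes (67.7%) and 19 small-subunit genes (79.2%). Values below 0 on all 4 arrays occurred in 12 and 11 genes, respectively.

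On each array the median of the large subunit lay at or above that of the small one. The large-subunit medians were -0.29, -0.12, -0.12 and -0.22 on arrays 1 to 4, and those of the small subunit -0.47, -0.21, -0.12 and -0.34. The difference was 0.19, 0.09, 0.00427 and 0.13, with a mean of 0.10 ± 0.08 (SD, n = 4). It was near 0 on array 3 and small beside the SD over genes within a subunit, 0.40 for the large and 0.29 for the small. The difference was not tested, as the members are not replicates.

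**Figure D3:**
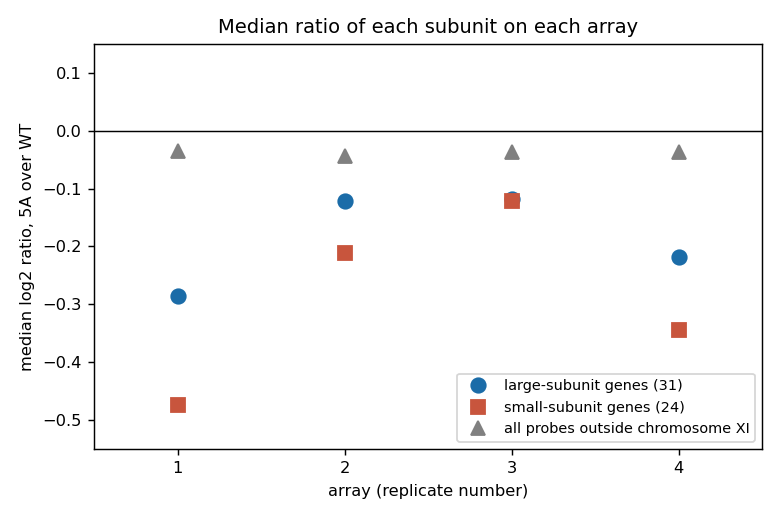
Median log2 ratio of the 5A mutant over the control on each of the 4 arrays for the 31 large-subunit genes, the 24 small-subunit genes and all probes outside chromosome XI. Both subunits lie below all probes on every array, and on array 3 the 2 subunits meet at -0.12.

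Genes with and without a bacterial counterpart were also set side by side. Among large-subunit genes, 6 of 22 with a bacterial counterpart were down-regulated and none was up-regulated in limma (median -0.22, with MRPL33 the only one higher at an unadjusted p under 0.05 and none by the plain test). The 9 mitochondria-specific large-subunit genes held both extremes of the 55, MRPL37 and MRPL44, with 2 down-regulated, 1 up-regulated and a median of -0.01. In the small subunit, 3 of 14 genes with a bacterial counterpart and 2 of 9 mitochondria-specific genes were down-regulated, and the medians were -0.29 and -0.28. MRP51 was kept out of both classes, because its relation to bacterial S1, after which the table names it bS1m, was not certain. A list of 4 proteins near the opening of the polypeptide exit tunnel was also looked at, which is not a complete list of the proteins there. In it, MRP20 and MRPL40 were down-regulated, and MRPL22 and MRPL4 were at 0.01 and -0.22 and did not pass. For comparison, 21.7% of probes outside chromosome XI were down-regulated. The down-regulated shares of the classes, from 21.4% to 27.3%, were near that background. The exit tunnel list holds only 4 genes, so it does not describe that region as a whole.

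The members were also compared between arrays. For pairs of arrays, Pearson's r over the 55 genes ranged from 0.638 to 0.807, and from 0.528 to 0.742 when MRPL44 was left out, whereas over all probes it ranged from 0.666 to 0.877. Spearman's rho over the 55 genes was lower, from 0.525 to 0.766. These correlations are across genes on arrays that share both strains and are given as a description.

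Mitochondrial ribosomal protein genes that were not members were looked at next. Of 7 tested on chromosome XI, 6 were up-regulated and none was down-regulated (0 also at an unadjusted limma p under 0.05 and by the plain test), with a median of 0.85. The largest were MRP17 at 1.08 (2 arrays), MRPL31 at 1.08 ± 0.08 (SD, n = 4, adjusted p = 0.00116 in limma) and MRP49 at 0.88 ± 0.17 (SD, n = 4, adjusted p = 0.00291 in limma). The 317 tested probes of that chromosome had a median of 0.89, and 237 of them were up-regulated. With each chromosome centred on its own median, the 7 genes had a median of -0.04, and MRPL13 at -0.55 was the only one called (limma adjusted p = 0.0376). The 13 chromosomes of the 55 members had medians between -0.11 and 0.02.

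Another 14 mitochondrial ribosomal protein genes outside chromosome XI, with other names or absent from the list, had a median of -0.11. Outside chromosome XI, 21.7% of probes were down-regulated and 16.8% up-regulated, and in each direction 14.3% of these 14 genes were called. Of these, MRX14 (-0.56 ± 0.28) and PET123 (-0.42 ± 0.10) were down-regulated, and SWS2 (0.66 ± 0.19) and MRP10 (0.58 ± 0.31) were up-regulated (SD, n = 4 for each, limma adjusted p = 0.0246, 0.0317, 0.00895 and 0.0249). The calls of MRX14 and PET123 were lost without array 1, 3 or 4 (adjusted p up to 0.148 in limma), and that of MRP10 without array 3 or 4 (up to 0.101), while SWS2 was called whichever array was left out. VAR1, the small-subunit protein encoded in mitochondrial DNA, read -3.28, -2.88, -4.85 and -3.68, far below every nuclear member on each array. It also lay below the other probes of mitochondrial open reading frames, of which it was the lowest. The 27 such probes had a median of 2.92, with 19 up-regulated and 6 down-regulated, and with each chromosome, the mitochondrial one included, centred on its own median VAR1 was at -6.75. The mean of VAR1 as deposited was -3.67 ± 0.85 (SD, n = 4, 12.8-fold lower, adjusted p = 0.000428 in limma).

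Genes that serve the mitochondrial ribosome showed larger changes in single cases than the nuclear members did. Among 19 tested translation and assembly factors, 7 were down-regulated (36.8%) and 2 up-regulated (10.5%), with a median of -0.35. The shares over all probes outside chromosome XI were 21.7% down-regulated and 16.8% up-regulated. RRF1, the ribosome recycling factor, read -1.73, -0.58, -2.41 and -2.27, low on all arrays but least so on array 2 (mean -1.75 ± 0.83, SD, n = 4, adjusted p = 0.00446 in limma). FMT1, which formylates the initiator methionyl-tRNA, was at -1.06 ± 0.29 (SD, n = 4, adjusted p = 0.00256 in limma), and the small-subunit assembly factor GEP3 at -1.05 ± 0.50 (SD, n = 4, adjusted p = 0.00698 in limma). MEF2, a translation factor that acts in ribosome recycling, was in the opposite direction at 1.35, 1.22, 1.48 and 1.82 (mean 1.47 ± 0.26, SD, n = 4, adjusted p = 0.000784 in limma). The other up-regulated gene was GTF1, a subunit of the amidotransferase that forms glutaminyl-tRNA, at 0.60 ± 0.23 (SD, n = 4, adjusted p = 0.0144 in limma), and it was not called without array 1 or array 3. RRF1, FMT1, GEP3 and MEF2 were called whichever array was left out.

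Of 11 mitochondrial aminoacyl-tRNA synthetase genes tested, 3 were down-regulated and none was up-regulated (0 also at an unadjusted limma p under 0.05 and by the plain test), with a median of -0.14. These were the tyrosyl enzyme MSY1 at -0.68 ± 0.16, the seryl enzyme DIA4 at -0.47 ± 0.24 and the arginyl enzyme MSR1 at -0.39 ± 0.02 (SD, n = 4 for each, limma adjusted p = 0.00688, 0.0359 and 0.0373). MSY1 was called whichever array was left out, whereas DIA4 was lost in each such fit (adjusted p up to 0.153 in limma) and MSR1 without array 1, 3 or 4 (up to 0.135). Both were also lost with each chromosome centred. The translational activators of single mitochondrial messages had a median on the other side of 0, at 0.16. Of 14 such genes, 4 were up-regulated, among them SOV1 at 0.64 ± 0.31, AEP1 at 0.49 ± 0.20 and PET309 at 0.47 ± 0.19, and PET122 was down-regulated at -0.53 ± 0.25 (SD, n = 4 for each). AEP1, PET309 and PET122 were not called without array 1, 3 or 4, nor SOV1 without array 3 or 4. Of the activators 28.6% were up-regulated and 7.14% down-regulated, and of the synthetases 27.3% were down-regulated. The shares over all probes were 19.8% up-regulated and 20.7% down-regulated, and outside chromosome XI 16.8% and 21.7%. Both subunits of the mitochondrial RNA polymerase were down-regulated, MTF1 at -1.68 ± 0.51 (SD, n = 3, adjusted p = 0.00291 in limma) and RPO41 at -0.64 ± 0.21 (SD, n = 4, adjusted p = 0.0108 in limma). RPO41 was not called without array 1 or array 3 (adjusted p = 0.0572 and 0.0505 in limma). The SD over genes, 0.36 for the members, was 0.36 for the 14 other mitochondrial ribosomal protein genes outside chromosome XI. It was 0.29 for the synthetases, 0.40 for the activators and 0.67 for the translation and assembly factors. Means below 0 made up 57.1%, 72.7%, 35.7% and 78.9% of these lists, and 72.7% of the members.

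**Figure D4:**
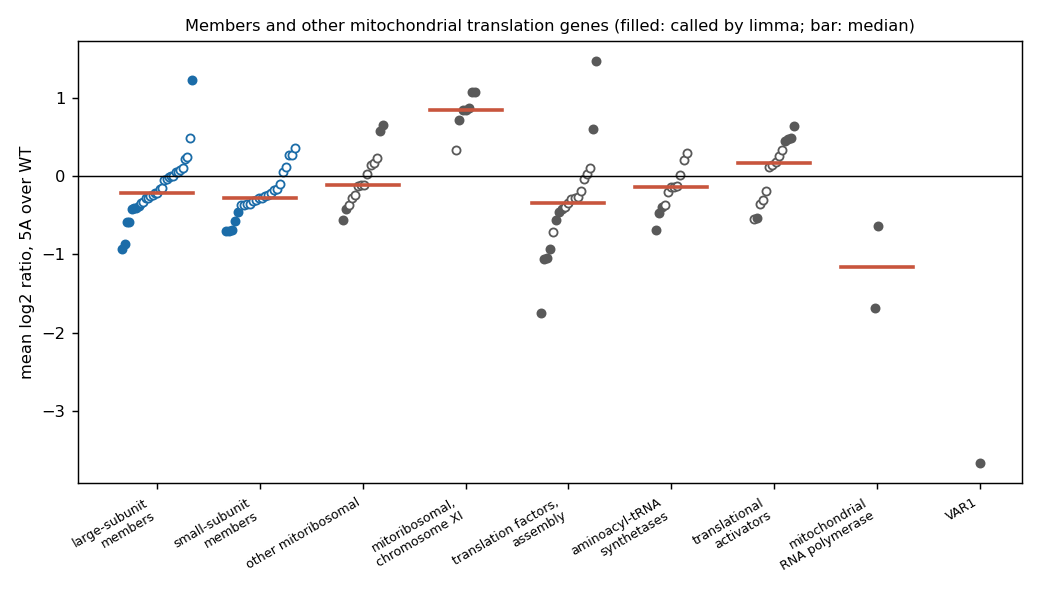
Mean log2 ratio of the 5A mutant over the control for each gene of the 2 subunits and of the comparison lists (filled, adjusted p under 0.05 in limma; bar, median of the list). Chromosome XI genes have a median of 0.85, and VAR1 is lowest at -3.67.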

How the data were processed

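The authors scanned the arrays with a GenePix 4000B, normalized them on the BASE server and deposited 1 log2 ratio per probe and array. The normalization method and background correction are not given in the sources used here, and spot intensities were not analysed here. The ratio was read as 5A over WT on a log2 scale because 325 probes with 4 values had a mean at or above 1 and 493 one at or below -1, the counts that the study's text gives for its fold rule. Values per array numbered 6022 to 6177, and array medians lay between -0.01 and -0.00340. The number of arrays, 4, limits the precision.

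The 6157 probes with at least 2 values entered an intercept-only fit in limma 3.58.1 (R 4.3.3, eBayes, Benjamini-Hochberg adjustment over all probes, threshold 0.05), and the other 53 were not tested. Up- and down-regulated mean adjusted p under 0.05, and the 2-fold rule used mean log2 ratios of 1 and -1. Subunit and class were assigned by hand from the known proteins (MRP7 and MRP20 are large-subunit proteins). Array values are given for the 6 highest and 6 lowest members, the one nearest 0 and the one with the largest SD, means for other called members, and for comparison lists up to 3 called genes per direction. MRPL22, MRPL4 and MRPL13, and the array values of VAR1, RRF1 and MEF2, were added after their values were seen. Members and lists were chosen with earlier results of these data known. Alternatives changed the centring, spread, missing-value filter, chromosome centring, variance moderation, array weights, test and arrays used. Tables and plots were made in Python 3.11.15 (pandas 2.3.3, numpy 2.4.6, matplotlib 3.10.9).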

Additional observations from a re-analysis of the deposited data

Results flagged for a closer look

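Of 83 sets of 4 array values examined, 1 had an array far from the rest. MRP51, a small-subunit protein gene, read 0.52 on array 2 and between -0.05 and 0.05 on the other 3 arrays. Chance alone sets about 1 in 20 such groups apart.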

How the results depend on the processing

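The count of down-regulated members, 13, was 21 with array weights, 6 with a plain one-sample test and 4 to 15 when each array was left out in turn (4 without array 1, 15 without array 2, 7 without array 3, 4 without array 4). The down-regulated share of the members, 23.6%, thus became 7.27%, 27.3%, 12.7% and 7.27%, and that of all probes, 20.7%, became 12.2%, 26.1%, 12.9% and 12.8%. The count of up-regulated members, 1, was 2 with arrays brought to a common spread or with array weights, 3 with each chromosome centred or with the plain test, and 1 to 3 with an array left out. In either direction, 41.8% of the members and 54.8% of all probes were called with array weights. These shares were 27.3% and 40.6% with a common spread, and 21.8% and 36.9% with each chromosome centred. With the plain test they were 16.4% and 14.8%, so the lower share of members called in the main fit was not seen there. Members past 2-fold in the lower direction numbered 0, and 0 to 1 with an array left out. MRPL44, MRPL37, MRPL24 and MRP2 were called under each of 10 alternatives to the limma fit, and the other 10 called members were lost under at least 1. MRPL37 also failed the plain test. The median of the members stayed between -0.27 and -0.20 with an array left out. The large minus small difference, as a mean over the arrays used, stayed between 0.07 and 0.13 in those fits. It was 0.15 with subunits assigned by the MRPL name. The large- and small-subunit medians of the mean ratios were -0.14 and -0.32 without array 2, and -0.25 and -0.27 without array 4. MRP49 on chromosome XI turned to -0.0102 with each chromosome centred (limma adjusted p = 0.956). No paired analysis was possible because each array is already a ratio of both strains.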
